A study of Homo sapiens with 6 samples.

Results

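Heat shock proteins and their DNAJ co-chaperones were followed in ZR-75-30 cells, an established human breast adenocarcinoma line, after lentiviral overexpression of CDK12. The genes were taken by a rule on symbols, set with earlier results of these data known: DNAJA, DNAJB and DNAJC genes with a number, HSPA, HSPB and HSP90 genes, and HSPD1, HSPE1, HSPH1, BAG3 and HSF1. The rule found 86 of the 26364 symbols in the count files, and 68 of the 86 had 10 or more counts in at least 3 libraries. The cells were infected with pLVX-CDK12, a virus that carries CDK12, or with the empty pLVX control virus, and each group held 3 RNA-seq libraries described as biological replicates. Both groups therefore share the infection and the vector, and both are the same cell line. Where nothing says that replicates were infected separately, p-values measure only the spread between these libraries.

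Chaperones bind unfolded proteins and help them reach or keep their shape. HSP70 proteins do this in cycles of ATP hydrolysis, which J-domain proteins of the DNAJ family start and exchange factors such as BAG3 and HSPH1 end. HSP90 acts later on kinases, receptors and other clients, among them the ErbB receptor that this line amplifies, and small heat shock proteins hold unfolded proteins without ATP. The transcription factor HSF1 raises the cytosolic set in stress and is known for supporting growth in breast cancer cells, while the endoplasmic reticulum (ER) and the mitochondrion have chaperones and stress pathways of their own.

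The libraries held 21178163 to 26543653 counts, and the listed genes took 1.47% to 1.55% of them with the CDK12 virus and 1.54% to 1.59% with the control virus. Levels are counts-per-million values (CPM) after TMM scaling, with standard deviation (SD) over 3 libraries, and differences are log2 fold changes, CDK12 minus control, with their standard error (SE). CDK12 stood at 2007, 2239 and 2123 CPM with its virus and at 78.9, 81.7 and 72.7 CPM with the control virus, so each library matched its label. The 8 luminal epithelial markers examined summed to 11900 to 12450 CPM with the CDK12 virus and 13550 to 14190 CPM in controls. Most of the sum came from the gene of the amplified ErbB receptor, which was called lower, as were KRT8, KRT18 and GATA3. KRT19, EPCAM, ESR1 and CDH1 did not pass (edgeR adjusted p = 0.132, 0.353, 0.0594 and 0.0891). Of these, KRT19 and ESR1 lay below the controls in every CDK12 library, CDH1 lay above them in every one, and EPCAM overlapped. Markers of other cells were also summed. Basal epithelial markers, nearly all TP63, summed to 0.260 to 0.371 CPM with the CDK12 virus and 2.19 to 2.49 CPM in controls, and leukocyte markers to 1.07 to 1.54 CPM with the CDK12 virus and 3.37 to 3.6 CPM in controls. Within the leukocyte list PTPRC fell (log2 fold change -3.02, edgeR adjusted p = 4.51e-11) and CD14 rose (0.85, 0.0339). Endothelial markers overlapped, at 1.41 to 2.17 CPM with the CDK12 virus and 2.16 to 2.84 CPM in controls, and VWF, the 1 tested, did not pass (edgeR adjusted p = 0.062). Fibroblast markers, nearly all COL1A1, summed to 60.1 to 70.9 CPM with the CDK12 virus and 46.0 to 50.8 CPM in controls. No marker was at 0 in every library, and the part of other cells in the results was not tested. In bulk RNA, fewer cells of a type and less RNA per cell cannot be told apart.

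HSF1, BAG3, HSP90AB1, HSPA8, HSPA1A, HSPA1B, HSPB1 and DNAJC9 were slightly lower in the CDK12 libraries. HSPA2, HSPA12A, HSPA4L, HSPA13, DNAJC12, DNAJC27 and DNAJC3-AS1 were higher. All of these calls held under 13 other settings and left-out libraries. HSP90AA1 was also lower, and 7 of the 13 kept its call. In the ER 11 of 14 members and in the mitochondrion 10 of 10 did not pass the test. By edgeR's quasi-likelihood test, 14 of the 68 tested members fell and 9 rose at a Benjamini-Hochberg adjusted p of 0.05 over all genes tested. The background was high: 35.1% of all 14665 genes tested passed, 16.2% higher and 18.9% lower, and 33.8% of the members did, so the share of calls did not set the members apart. The median log2 fold change was 0.04 over the members and 0.00 over all genes. The changes were small: the called members differed 1.08-fold to 1.30-fold where lower, with a median of 1.13-fold, and 1.16-fold to 1.5-fold where higher, with a median of 1.22-fold. In 16 members every CDK12 library lay below every control library and in 13 every one lay above; among all genes 45.6% were separated in one way or the other. The other scalings changed the balance. With upper-quartile factors 16 members were higher and 9 lower, with total counts 17 were higher and 8 lower, and without control replicate 2 there were 9 lower.

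**Figure D1:**
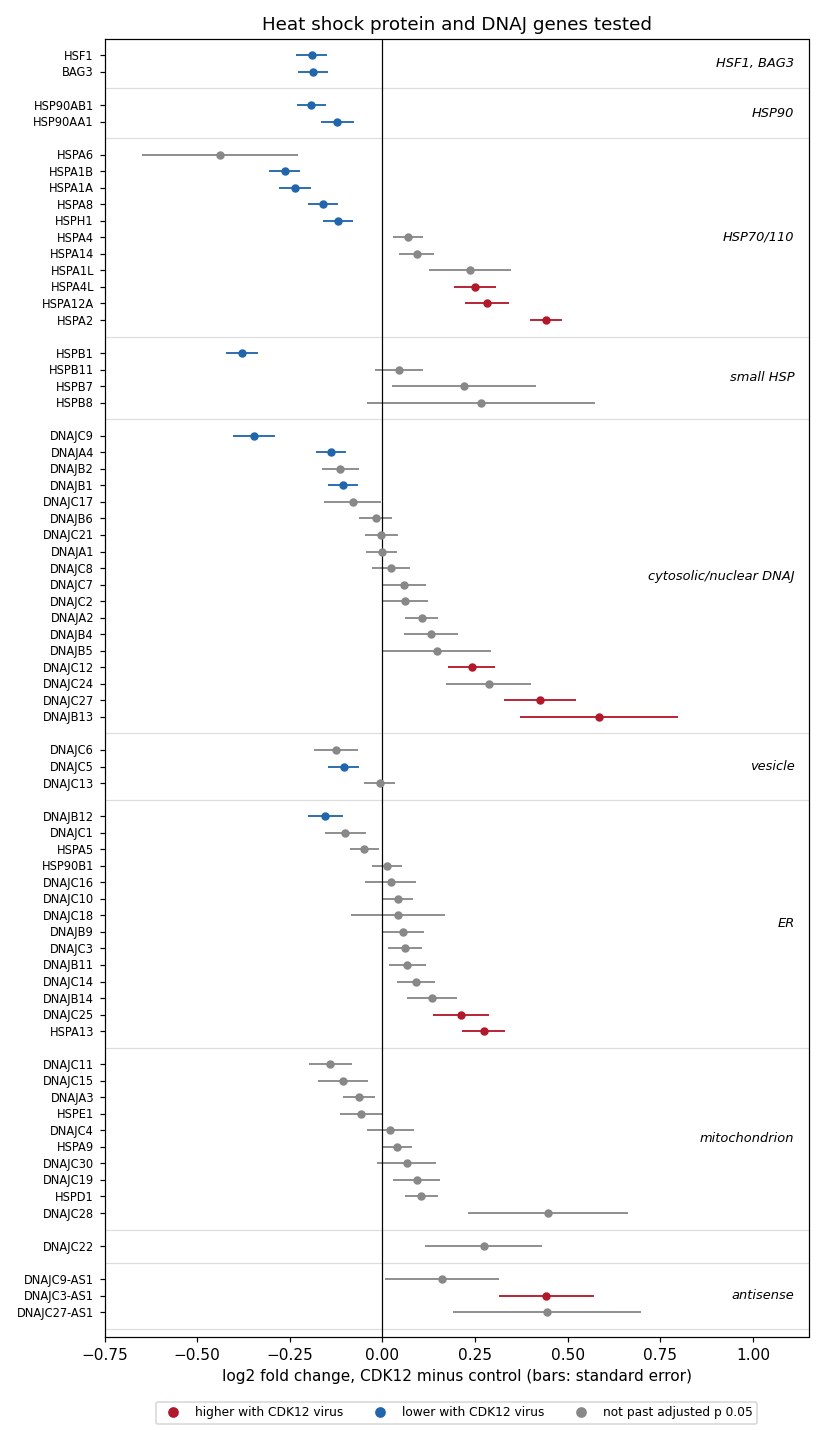
Log2 fold change (CDK12 minus control, horizontal axis) of the 68 tested genes, grouped by compartment, with bars for the standard error. Red points were called higher (9), blue points lower (14) and grey points did not pass an adjusted p of 0.05. The order of the blocks was chosen. Blue points occur in every block from HSF1 and BAG3 down to the ER. The HSP70 and HSP110 block holds 4 blue and 3 red points, and no mitochondrial gene is coloured.

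HSF1, the master regulator of the heat shock response, and BAG3, an HSP70 exchange factor that steers damaged proteins into autophagy, both fell. HSF1 stood at 187, 187 and 195 CPM with the CDK12 virus and at 222, 208 and 219 CPM in controls (log2 fold change -0.19, SE 0.04, edgeR adjusted p = 0.000711). BAG3 stood at 161, 160 and 159 CPM with the CDK12 virus, against 178, 184 and 184 CPM in controls (log2 fold change -0.19, SE 0.04, edgeR adjusted p = 0.000647). For both genes each CDK12 library lay below each control library, and both stayed called under all 13 other settings and left-out libraries.

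Both cytosolic HSP90 genes fell. HSP90AB1, the constitutive form, stood at 2245, 2257 and 2171 CPM with the CDK12 virus and at 2514, 2535 and 2573 CPM in controls (log2 fold change -0.19, SE 0.04, edgeR adjusted p = 0.000365). HSP90AA1, the stress-inducible form, stood at 3519, 3304 and 3138 CPM with the CDK12 virus and at 3529, 3728 and 3580 CPM in controls, so its groups nearly touched. Its log2 fold change was -0.12 (SE 0.04, edgeR adjusted p = 0.0302). HSP90AA1 did not pass without CDK12 replicate 2 (adjusted p = 0.09), CDK12 replicate 3 (0.19), control replicate 2 (0.121) or control replicate 3 (0.0697), nor with upper-quartile factors (0.138) or total counts (0.154), which leaves 1 of the 2 genes called. Per kilobase of exon these were the most abundant genes of the set, HSP90AA1 at 824 ± 47.5 CPM per kilobase with the CDK12 virus and 897 ± 25.6 in controls, and HSP90AB1 at 746 ± 15.7 with the CDK12 virus and 853 ± 9.97 in controls (SD, n = 3 each).

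The cytosolic HSP70 genes moved in both directions. Of 13 listed HSP70 and HSP110 symbols, 1 of them a pseudogene, 11 were tested, 4 fell, 3 rose and 4 did not pass, 63.6% called against 35.1% of all genes. HSPA8, the constitutive HSC70 that carries most of the everyday HSP70 work, stood at 1433, 1364 and 1321 CPM with the CDK12 virus and at 1510, 1555 and 1535 CPM in controls (log2 fold change -0.16, SE 0.04, edgeR adjusted p = 0.00289). HSPA1A and HSPA1B encode the stress-inducible HSP70. HSPA1A stood at 349, 354 and 377 CPM with the CDK12 virus and at 408, 415 and 449 CPM in controls (log2 fold change -0.24, SE 0.04, edgeR adjusted p = 0.000113). HSPA1B stood at 174, 172 and 183 CPM with the CDK12 virus and at 209, 210 and 217 CPM in controls (log2 fold change -0.26, SE 0.04, edgeR adjusted p = 1.42e-05). In these 3 genes the groups did not overlap.

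HSPA1A and HSPA1B are near-identical copies. Of the windows of 100 bases in their longest GENCODE 29 transcripts, 69.9% of those of HSPA1A and 72.7% of those of HSPA1B occur in a transcript of another gene, mainly in each other, so the split of reads between them is uncertain. Their summed counts gave 523, 526 and 560 CPM with the CDK12 virus and 617, 625 and 665 CPM in controls, a log2 fold change of -0.25 (SE 0.04, edgeR adjusted p = 4.41e-05). The sum therefore fell as each row did. HSPH1, the HSP110 exchange factor of HSP70, averaged 351 ± 10.6 CPM with the CDK12 virus and 381 ± 10.5 CPM in controls (SD, n = 3 each; log2 fold change -0.12, SE 0.04, edgeR adjusted p = 0.0227). HSPH1 did not pass without CDK12 replicate 3 (adjusted p = 0.109), control replicate 1 (0.0631) or control replicate 2 (0.0922), nor with upper-quartile factors (0.114) or total counts (0.137).

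HSPA2, an HSP70 best known from the testis, showed the largest rise of an HSP70 gene. It stood at 145, 149 and 155 CPM with the CDK12 virus and at 113, 109 and 109 CPM in controls (log2 fold change 0.44, SE 0.04, edgeR adjusted p = 5.67e-09). HSPA12A, a distant relative of HSP70, stood at 36.6, 40.5 and 36.9 CPM with the CDK12 virus and at 30.4, 32.4 and 31.0 CPM in controls (log2 fold change 0.28, SE 0.06, edgeR adjusted p = 0.000557). HSPA4L, an HSP110-type exchange factor like HSPH1, stood at 37.8, 38.7 and 37.2 CPM with the CDK12 virus and at 32.3, 32.3 and 31.0 CPM in controls (log2 fold change 0.25, SE 0.06, edgeR adjusted p = 0.00104). All 3 stayed called under each of the 13 alternatives. HSPA4, the more abundant relative of HSPA4L, averaged 454 ± 14.7 CPM with the CDK12 virus and 433 ± 14.0 CPM in controls and did not pass (log2 fold change 0.07, edgeR adjusted p = 0.194); with upper-quartile factors (0.043) and total counts (0.0326) it was called higher. HSPA14, which acts at the ribosome, and HSPA1L, a germ cell gene, lay above the controls in every CDK12 library without passing (log2 fold changes 0.09 and 0.24, edgeR adjusted p = 0.134 and 0.0977); with total counts both were called higher (0.0277 and 0.0492), HSPA14 also with upper-quartile factors (0.0345).

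HSPA6, a strictly inducible HSP70, had few counts, 31 to 63 in a library. It stood at 2.34, 1.28 and 1.37 CPM with the CDK12 virus and at 1.8, 2.73 and 2.35 CPM in controls, so the groups overlapped through CDK12 replicate 1 and control replicate 1. Its log2 fold change was -0.44 (SE 0.21, edgeR adjusted p = 0.105), and it was called lower without CDK12 replicate 1 (log2 fold change -0.78, adjusted p = 0.00581) and without control replicate 1 (-0.58, 0.0458). Of its windows of 100 bases, 27.6% occur in HSPA7, its pseudogene.

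**Figure D2:**
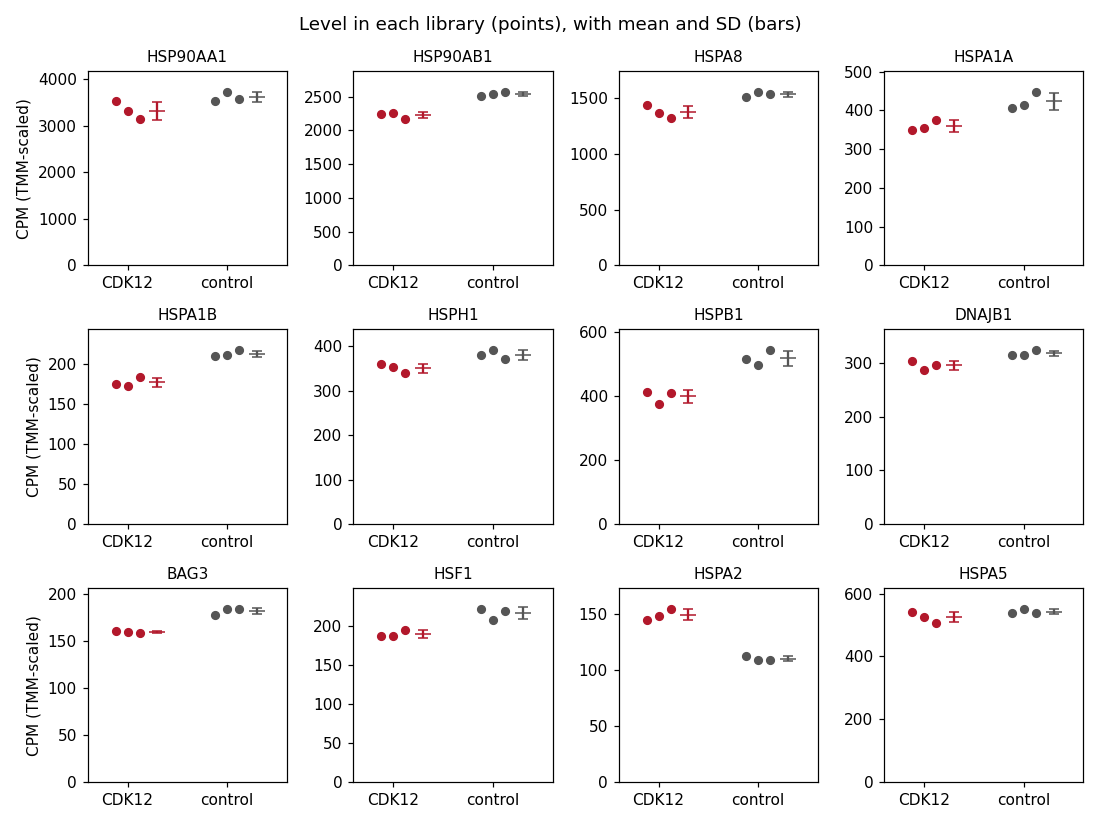
CPM in each library for 12 chaperone genes, CDK12 libraries (red) left of control libraries (grey), with the mean and SD beside the points; every axis starts at 0. All but HSPA5 and HSPA2 are lower in each CDK12 library than in each control library; HSPA5 overlaps and HSPA2 is higher, at 145 to 155 CPM against 109 to 113 CPM.

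Among small heat shock proteins HSPB1 fell. HSPB1 encodes HSP27, which is abundant in luminal breast cancer cells, and had the largest called fall of the whole set. It stood at 412, 375 and 408 CPM with the CDK12 virus and at 515, 496 and 542 CPM in controls (log2 fold change -0.38, SE 0.04, edgeR adjusted p = 1.2e-07). Every CDK12 library lay below every control, and the value ran from -0.41 to -0.34 over the 13 alternatives. The other 3 tested members did not pass, so 25% of the small heat shock proteins were called, against 35.1% of all genes. HSPB11, known as an intraflagellar transport subunit, averaged 31.8 ± 1.01 CPM with the CDK12 virus and 30.9 ± 2.71 CPM in controls (SD, n = 3 each). HSPB7, a muscle protein, stood at 1.82 ± 0.26 CPM with the CDK12 virus and 1.55 ± 0.21 CPM in controls (edgeR adjusted p = 0.4). HSPB8, the partner of BAG3, stood at 0.872 ± 0.21 CPM with the CDK12 virus and 0.734 ± 0.32 CPM in controls. HSPB2, HSPB3, HSPB6 and HSPB9 had too few counts to test.

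Promoters of the tested members were read for the heat shock element, the site that HSF1 binds. Of 65 tested members outside the antisense transcripts, 59 had a promoter in the RefSeq table (GRCh38.p14, 250 bases before to 50 after the gene start). The letters GAANNTTC or TTCNNGAA, paired units of the element that each read the same on both strands, occurred in 18.6% of these promoters (11 of 59) and in 13.5% of all 35116 promoters. The 3-unit form, GAANNTTC run on by NNGAA and searched on both strands, contains both pairs and occurred in 4 of the 59 and in 0.49% of all promoters. The pair occurred in 4 of 13 promoters of lower members, 0 of 8 of higher members and 7 of 38 of members that did not pass. In the same order the 3-unit form occurred in 1 of 13 (HSPA8), 0 of 8 and 3 of 38 (HSPA6, DNAJA1 and DNAJB6). The 4 lower members with a pair include HSPA1A and HSPA1B, which are near-identical copies. The only pair of HSPA1L, which did not pass, is the site of HSPA1A read on the other strand, so that site is counted under both genes. These are counts of letters in a short window, not bound sites. Only the first promoter entry of each member was read, whereas the 35116 include further entries of the same gene. HSP90AA1, HSP90AB1, DNAJA4 and DNAJB1, all called lower and without a pair, have further entries that were not read. The same holds for HSPA12A, HSPA4L and DNAJC27, called higher and without a pair. It also holds for HSPD1, DNAJB4, DNAJC4, DNAJC6, DNAJC7, DNAJC14 and DNAJC19, which did not pass and showed no pair. The upstream stretches below hold the element in 3 fallen genes and in DNAJB6, which did not pass, with the matching letters in capitals, 5′ to 3′ on the gene's strand.
HSPA8, chr11:123062164-123062381, minus strand: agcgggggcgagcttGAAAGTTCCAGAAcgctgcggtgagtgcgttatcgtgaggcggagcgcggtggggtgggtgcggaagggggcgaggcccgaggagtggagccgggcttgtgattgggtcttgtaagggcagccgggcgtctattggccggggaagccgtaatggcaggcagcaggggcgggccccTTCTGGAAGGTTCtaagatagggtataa
HSPA1A, chr6:31815422-31815459, plus strand: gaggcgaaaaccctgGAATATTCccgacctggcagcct
HSPB1, chr7:76302476-76302513, plus strand: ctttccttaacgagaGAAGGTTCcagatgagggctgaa
DNAJB6, chr7:157336858-157336900, plus strand: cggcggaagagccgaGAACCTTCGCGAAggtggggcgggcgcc

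HSPA8 carried a pair of 3-unit elements, at the start and the end of the stretch shown, and DNAJB6 carried 1, whereas HSPA1A and HSPB1 each carried a single pair of units. DNAJB6, a co-chaperone that keeps polyglutamine proteins from aggregating, stood at 140, 133 and 131 CPM with the CDK12 virus and at 130, 140 and 140 CPM in controls. Its groups overlapped throughout (log2 fold change -0.02, SE 0.04, edgeR adjusted p = 0.784), and with upper-quartile factors and total counts its sign turned to 0.02.

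Of the 21 cytosolic and nuclear DNAJ genes 18 were tested. Of these 3 fell, 3 rose and 12 did not pass, 33.3% called against 35.1% of all genes. DNAJC9, a nuclear co-chaperone that also carries histones, fell furthest. It stood at 37.4, 36.8 and 35.5 CPM with the CDK12 virus and at 44.0, 49.0 and 46.6 CPM in controls (log2 fold change -0.35, SE 0.06, edgeR adjusted p = 2.47e-05). DNAJA4, a type A co-chaperone, stood at 196, 202 and 197 CPM with the CDK12 virus and at 217, 219 and 219 CPM in controls (log2 fold change -0.14, SE 0.04, edgeR adjusted p = 0.00735; 0.0549 with total counts). DNAJB1, the main stress-inducible partner of HSP70, stood at 304, 288 and 296 CPM with the CDK12 virus and at 316, 315 and 324 CPM in controls. The groups did not overlap, but the distance was short (log2 fold change -0.11, SE 0.04, edgeR adjusted p = 0.0385). The call of DNAJB1 was lost without CDK12 replicate 2 (adjusted p = 0.163) or 3 (0.0779) and without control replicate 1 (0.0829), 2 (0.0525) or 3 (0.163), and also with upper-quartile factors (0.185), total counts (0.216) and no filter (0.0548).

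The 3 rising genes of this group are of lower abundance. DNAJC12, a co-chaperone of the aromatic amino acid hydroxylases, stood at 32.1, 28.3 and 29.4 CPM with the CDK12 virus and at 25.1, 25.7 and 25.2 CPM in controls (log2 fold change 0.24, SE 0.06, edgeR adjusted p = 0.00403). DNAJC27, a Rab-like GTPase with a J domain, stood at 9.03, 11.4 and 10.96 CPM with the CDK12 virus and at 7.64, 7.77 and 7.91 CPM in controls (log2 fold change 0.43, SE 0.10, edgeR adjusted p = 0.00127). In both the groups were apart, and both stayed called under all 13 alternatives. DNAJB13, known from the axoneme of cilia and sperm, stood at 1.86, 1.56 and 1.5 CPM with the CDK12 virus and at 1.05, 0.911 and 1.30 CPM in controls (log2 fold change 0.58, SE 0.21, edgeR adjusted p = 0.0335). DNAJB13 lost its call under the DESeq2 Wald test (0.142) and without CDK12 replicate 1 (0.129) or 2 (0.0528) or control replicate 1 (0.0939) or 2 (0.127), all adjusted p-values.

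Among those that did not pass, DNAJC24, which takes part in diphthamide synthesis, came closest, at 6.49 ± 0.50 CPM with the CDK12 virus and 5.29 ± 0.68 CPM in controls (SD, n = 3 each; log2 fold change 0.29, edgeR adjusted p = 0.0517). It was called higher without CDK12 replicate 1 (adjusted p = 0.0269) or control replicate 3 (0.0181) and in 5 of the other settings. DNAJA1 and DNAJA2 are the abundant type A partners of HSC70. DNAJA1 averaged 376 ± 16.1 CPM with the CDK12 virus and 376 ± 10.04 CPM in controls, a log2 fold change of 0.00 (SE 0.04). DNAJA2 averaged 160 ± 4.31 CPM with the CDK12 virus and 149 ± 7.52 CPM in controls (log2 fold change 0.11, edgeR adjusted p = 0.0617); it was called higher with upper-quartile factors (0.0122), total counts (0.00953) and the 1 CPM filter (0.0479), and without CDK12 replicate 3 (0.049) or control replicate 2 (0.0263). DNAJB2 and DNAJB4 were likewise called in 1 direction each when CDK12 replicate 1 was left out, DNAJB2 lower (log2 fold change -0.14, adjusted p = 0.0281) and DNAJB4 higher (0.20, 0.0323), and DNAJB2 also without control replicate 1 (-0.15, 0.0463). Log2 fold changes of the remaining members, the ribosome-associated DNAJC2, the spliceosomal DNAJC8 and DNAJC17, and DNAJB5, DNAJC7 and DNAJC21, lay between -0.08 for DNAJC17 and 0.15 for DNAJB5.

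Among the vesicle and endosome co-chaperones 3 of 5 were tested and 1 fell by a narrow margin, 33.3% called against 35.1% of all genes. DNAJC5, the cysteine string protein of secretory vesicles, stood at 158, 164 and 168 CPM with the CDK12 virus and at 178, 173 and 176 CPM in controls (log2 fold change -0.11, SE 0.04, edgeR adjusted p = 0.0489). Only 2 of the 13 alternatives kept that call, the replicate block and leaving out CDK12 replicate 3, and the others gave adjusted p-values from 0.0537 to 0.244; those without CDK12 replicate 1 or 2 or control replicate 1, 2 or 3 were 0.156, 0.0934, 0.166, 0.0571 and 0.125. DNAJC6, auxilin, which uncoats clathrin vesicles, lay below the controls in every CDK12 library without passing (28.7 ± 0.47 CPM with the CDK12 virus and 31.3 ± 1.03 CPM in controls, edgeR adjusted p = 0.1). DNAJC13, an endosomal sorting factor, averaged 171 ± 4.16 CPM with the CDK12 virus and 172 ± 7.03 CPM in controls.

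In the ER 2 of 14 members rose, 1 fell and 11 did not pass, 21.4% called against 35.1% of all genes. HSPA13, an HSP70 relative of microsomes, stood at 41.6, 45.0 and 43.3 CPM with the CDK12 virus and at 34.9, 38.5 and 34.2 CPM in controls (log2 fold change 0.27, SE 0.06, edgeR adjusted p = 0.000656). DNAJC25 stood at 21.9, 18.8 and 18.5 CPM with the CDK12 virus and at 17.7, 17.2 and 16.4 CPM in controls (log2 fold change 0.21, SE 0.08, edgeR adjusted p = 0.0296). The high value of CDK12 replicate 1 carried much of it: without that library the adjusted p was 0.208, without control replicate 2 or 3 it was 0.0616 or 0.115, and with the DESeq2 Wald test 0.0768. DNAJB12, an ER membrane co-chaperone of protein degradation, fell, at 61.1, 59.8 and 59.9 CPM with the CDK12 virus and 65.3, 69.1 and 66.8 CPM in controls (log2 fold change -0.15, SE 0.05, edgeR adjusted p = 0.0128). DNAJB12 did not pass without control replicate 2 (adjusted p = 0.0542), with upper-quartile factors (0.0542) or with total counts (0.0654).

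The main ER chaperones overlapped between the groups. HSPA5, the ER HSP70 known as BiP and the usual gauge of ER stress, stood at 540, 525 and 508 CPM with the CDK12 virus and at 537, 552 and 539 CPM in controls (log2 fold change -0.05, SE 0.04, edgeR adjusted p = 0.358). HSP90B1, the ER HSP90 known as GRP94, stood at 743, 723 and 676 CPM with the CDK12 virus and at 701, 715 and 708 CPM in controls (log2 fold change 0.01, SE 0.04, edgeR adjusted p = 0.849). Both promoters hold the ER stress element, CCAAT and CCACG joined by a spacer of fixed length and searched on both strands, which occurs in 2 of the 59 member promoters and in 0.0769% of all promoters. The stretches are shown because these 2 genes mark the pathway, with the element in capitals.
HSPA5, chr9:125241376-125241424, minus strand: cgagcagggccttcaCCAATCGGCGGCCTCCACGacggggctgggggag
HSP90B1, chr12:103930201-103930354, plus strand: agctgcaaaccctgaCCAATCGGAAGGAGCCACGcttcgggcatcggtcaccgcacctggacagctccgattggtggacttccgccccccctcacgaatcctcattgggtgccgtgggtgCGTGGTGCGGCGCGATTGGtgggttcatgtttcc

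The ER co-chaperones that the unfolded protein response raises did not pass either. DNAJB9, which binds unfolded proteins and the stress sensor IRE1, averaged 39.1 ± 1.11 CPM with the CDK12 virus and 37.7 ± 1.13 CPM in controls (SD, n = 3 each; edgeR adjusted p = 0.469). DNAJB11, DNAJC3, an inhibitor of stress kinases, and DNAJC10, a disulfide reductase, had log2 fold changes of 0.07, 0.06 and 0.04 (edgeR adjusted p = 0.32, 0.332 and 0.466). DNAJB14, a relative of DNAJB12, came closest to the threshold, at 51.3 ± 7.03 CPM with the CDK12 virus and 46.8 ± 1.94 CPM in controls (edgeR adjusted p = 0.127); without CDK12 replicate 1, its lowest CDK12 library, it was called higher (log2 fold change 0.23, adjusted p = 0.00346). DNAJB14 and DNAJC14 were called higher with upper-quartile factors (adjusted p = 0.0483 and 0.049) and with total counts (0.0428 and 0.0404). The others, DNAJC1, DNAJC16 and DNAJC18, lay between -0.10 and 0.04 on the log2 scale.

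In the mitochondrion 10 members were tested and 0 passed by edgeR's quasi-likelihood test or the DESeq2 Wald test. At an unadjusted edgeR p under 0.05, 2 were higher and 1 lower, against 3115 higher and 3427 lower of all 14665 genes tested. HSPA9, the mitochondrial HSP70 mortalin, stood at 688, 661 and 648 CPM with the CDK12 virus and at 638, 671 and 636 CPM in controls (log2 fold change 0.04, SE 0.04, edgeR adjusted p = 0.487). HSPD1, the chaperonin HSP60, stood at 496, 480 and 453 CPM with the CDK12 virus and at 422, 466 and 441 CPM in controls. Its groups overlapped (log2 fold change 0.11, SE 0.04, edgeR adjusted p = 0.0619), yet it was called higher with upper-quartile factors (0.0125), total counts (0.00936), no filter (0.0485), the 1 CPM filter (0.0489), without CDK12 replicate 3 (0.0228) and without control replicate 2 (0.0278). HSPE1, the lid HSP10 of that chaperonin, stood at 52.6, 49.2 and 48.5 CPM with the CDK12 virus and at 48.4, 50.9 and 57.1 CPM in controls (log2 fold change -0.06, SE 0.06, edgeR adjusted p = 0.467).

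Of the mitochondrial J proteins, DNAJC11, a partner of the crista-forming complex, came closest. It stood at 31.2, 31.1 and 32.0 CPM with the CDK12 virus and at 35.2, 34.0 and 34.8 CPM in controls, without overlap (log2 fold change -0.14, SE 0.06, edgeR adjusted p = 0.0559). DNAJC28, a gene with few counts, averaged 1.8 ± 0.15 CPM with the CDK12 virus and 1.29 ± 0.43 CPM in controls (log2 fold change 0.45, SE 0.22, edgeR adjusted p = 0.109); without control replicate 3 it was called higher (0.68, adjusted p = 0.0411). DNAJC15 had a log2 fold change of -0.11 (edgeR adjusted p = 0.236) and was called lower without CDK12 replicate 1 (-0.19, 0.0297). DNAJA3, the J partner of mortalin, DNAJC19 of the import motor, DNAJC4 and DNAJC30 ranged from -0.06 for DNAJA3 to 0.09 for DNAJC19.

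Of the antisense transcripts 3 were tested and 1 was called, 33.3% against 35.1% of all genes. DNAJC3-AS1, listed as antisense to DNAJC3, rose, at 4.35, 4.49 and 4.54 CPM with the CDK12 virus and 3.25, 3.02 and 3.53 CPM in controls (log2 fold change 0.44, SE 0.13, edgeR adjusted p = 0.00864). DNAJC3 itself did not pass, at 101 ± 6.09 CPM with the CDK12 virus and 97.2 ± 1.97 CPM in controls (SD, n = 3 each). Because the strand setting of the counting is not given, reads of the 2 transcripts cannot be told apart with certainty. DNAJC9-AS1 and DNAJC27-AS1 had log2 fold changes of 0.16 and 0.44 without passing (edgeR adjusted p = 0.443 and 0.178). DNAJC22, placed in no compartment, had one of 0.27 (edgeR adjusted p = 0.184). The 18 untested symbols, 10 genes and 8 pseudogenes, read-through or antisense transcripts, reached at most 13 counts or 0.535 CPM in a library, and 4 were at 0 in all 6; a count of 0 in a library allows up to 0.111 to 0.144 CPM, counting error only.

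The direction of the changes went with the level of the gene. The 14 lower members had a median level of 258 CPM and the 9 higher members one of 27.7 CPM; over all genes the same medians were 48.8 and 17.2 CPM. Across the 68 members, Spearman's rho between log2 fold change and mean CPM was -0.570, and across all 14665 genes tested it was -0.212; the points share the same 6 libraries, and genes of low count have wide errors. Length showed little of this, with a rho of 0.093 between log2 fold change and gene span over 67 members and -0.050 over all genes with a GENCODE 29 span. The median span was 20.3 kilobases for lower, 25.7 for higher and 29.6 for uncalled members, against 29.7, 31.2 and 31.9 kilobases among all genes.

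**Figure D3:**
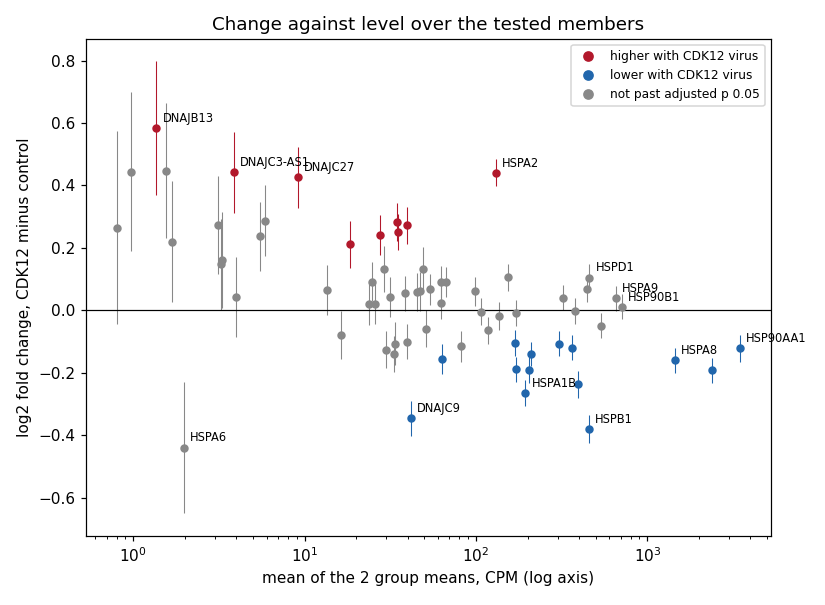
Log2 fold change (CDK12 minus control, vertical axis, bars for SE) against the level in CPM (log axis) for the 68 tested members. The lower calls (blue) have a median level of 258 CPM and the higher calls (red) one of 27.7 CPM, with HSPA2 the red point at high level.

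The calls differed in how many of the alternatives kept them. Of the 14 lower members 8 (HSF1, BAG3, HSP90AB1, HSPA8, HSPA1A, HSPA1B, HSPB1 and DNAJC9) stayed called under all 13 alternatives, and of the 9 higher members 7 did (HSPA2, HSPA12A, HSPA4L, HSPA13, DNAJC12, DNAJC27 and DNAJC3-AS1). None of the 23 called members changed sign under any of them. The other 6 lower members had log2 fold changes from -0.15 to -0.11, each with at least 1 scaling that lost the call, and 5 of them (all but DNAJA4) also lost it without some single library. DNAJC25 and DNAJB13 kept theirs under the 3 other scalings and lost them under DESeq2's test and without some single libraries.

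**Figure D4:**
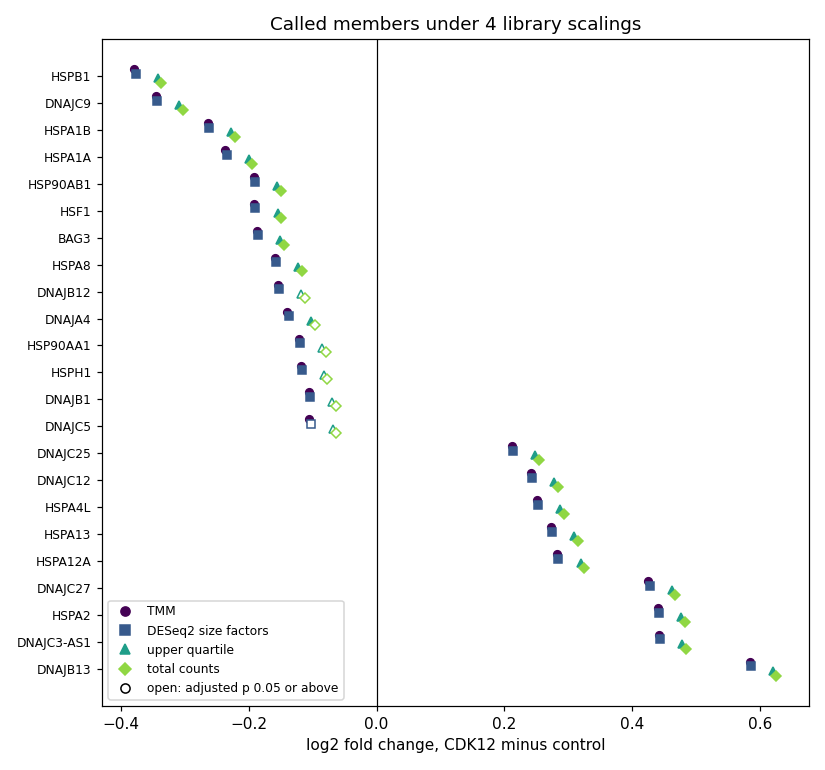
Log2 fold change (CDK12 minus control) of the 23 called members under TMM, DESeq2 size factors, upper-quartile factors and total counts, with open symbols where the adjusted p was 0.05 or above. Upper-quartile factors and total counts move every gene to the right, and the open symbols belong to the 6 lower genes nearest to 0, from DNAJB12 to DNAJC5.

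Other genes of protein folding, in lists chosen with earlier results known, were called about as often as all genes. Of 74 genes in 6 lists all were tested, 18 fell and 6 rose, 32.4% called against 35.1% of all genes (18.9% lower and 16.2% higher). With upper-quartile factors the counts were 10 and 12 and with total counts 10 and 14, so the balance turned with the scaling. Without CDK12 replicate 2 there were 11 lower and without control replicate 3 there were 10. Among 14 HSP90 co-chaperones 2 fell and 1 rose, 21.4% called against 35.1% of all genes. CDC37, which hands kinases to HSP90, averaged 125.3 ± 0.86 CPM with the CDK12 virus and 144 ± 5.04 CPM in controls (log2 fold change -0.20, edgeR adjusted p = 0.000483). AHSA1, the activator of the HSP90 ATPase, fell by 0.13 on the log2 scale (adjusted p = 0.0165, but 0.0612 without CDK12 replicate 2, 0.0646 without CDK12 replicate 3, 0.0534 without control replicate 2, 0.0858 with upper-quartile factors and 0.105 with total counts), and FKBP5, an immunophilin induced by steroid receptors, rose (0.22, 0.0143; 0.0875 without CDK12 replicate 2 and 0.067 without control replicate 1). Counts of co-chaperones with upper-quartile factors or total counts were 2 higher and 1 lower. The lower count was 1 without CDK12 replicate 2 or 3 or control replicate 2, and the higher count was 0 without CDK12 replicate 2 or control replicate 1 and 2 without CDK12 replicate 1 or control replicate 2.

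Among 10 exchange factors of HSP70, 4 fell and 1 rose, 50% called against 35.1% of all genes. HSPBP1 averaged 37.3 ± 1.14 CPM with the CDK12 virus and 45.1 ± 1.00 CPM in controls (log2 fold change -0.28, edgeR adjusted p = 0.000268). BAG6, which guards membrane proteins before insertion, and SIL1, the exchange factor of BiP, fell with log2 fold changes of -0.15 and -0.16 (adjusted p = 0.00584 and 0.0287); BAG6 was at 0.0501 without control replicate 3, and SIL1 was at 0.0508 and 0.111 without CDK12 replicate 1 and 2 and at 0.0602 and 0.149 without control replicate 1 and 3, and SIL1 did not pass with upper-quartile factors (0.0925), total counts (0.106) or DESeq2's test (0.0648). BAG2, an inhibitor of the ligase CHIP, rose, at 14.4 ± 0.77 CPM with the CDK12 virus and 11.4 ± 0.61 CPM in controls (0.34, 0.00152). With upper-quartile factors 2 exchange factors were higher and 2 lower, with total counts 3 and 2, and the lower count was 2 without CDK12 replicate 2 and 1 without control replicate 3. The chaperonin TRiC and prefoldin, which fold actin and tubulin, had 15 genes tested. Of these 2 fell and 1 rose, 20% called against 35.1% of all genes. CCT3 and CCT5 fell (log2 fold changes -0.13 and -0.11, edgeR adjusted p = 0.0108 and 0.0293) and CCT4 rose (0.16, 0.00423), although all 3 are subunits of 1 ring; with upper-quartile factors and total counts CCT3 (0.0692 and 0.0798) and CCT5 (0.144 and 0.168) were not called. CCT3 was also lost without CDK12 replicate 2 (0.0506) or control replicate 3 (0.0605), and CCT5 without CDK12 replicate 3 (0.174) or control replicate 1 (0.0582), 2 (0.0867) or 3 (0.0761), and without CDK12 replicate 2 a second subunit or prefoldin gene was called higher, 2 in all.

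Of 8 other heat shock factors and HSF1-linked genes, 4 fell and 2 rose, 75% called against 35.1% of all genes. CRYAB, the small heat shock protein alpha B crystallin, which the symbol rule does not include, showed the largest difference of any chaperone gene examined, at 1.90 ± 0.13 CPM with the CDK12 virus and 4.92 ± 0.45 CPM in controls (SD, n = 3 each; log2 fold change -1.37, SE 0.14, edgeR adjusted p = 2.35e-08). SERPINH1, the collagen chaperone, fell with a log2 fold change of -0.16 (adjusted p = 0.0124; 0.0551 without CDK12 replicate 2, 0.0637 without control replicate 1, 0.083 without control replicate 3, 0.0539 with upper-quartile factors and 0.0636 with total counts). HSF2, the second heat shock factor, rose where HSF1 fell, at 24.8 ± 1.70 CPM with the CDK12 virus and 20.9 ± 1.03 CPM in controls (0.24, 0.00706). HSPBAP1, named for binding HSP27, rose (0.59, 7.24e-06). Lower calls in this list numbered 2 with upper-quartile factors or total counts, and 2 without CDK12 replicate 2, control replicate 1 or control replicate 3.

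Of 18 genes of ER folding and the unfolded protein response, 4 fell and 1 rose, 27.8% called against 35.1% of all genes. CALR, the lectin chaperone calreticulin, averaged 634 ± 5.24 CPM with the CDK12 virus and 724 ± 18.1 CPM in controls (log2 fold change -0.19, edgeR adjusted p = 0.000367). SDF2L1, a partner of BiP and its J proteins, averaged 9.47 ± 0.14 CPM with the CDK12 virus and 13.4 ± 1.45 CPM in controls (-0.51, 5.59e-05), and ERO1A, the oxidase of disulfide formation, fell with a log2 fold change of -0.19 (0.00176). XBP1, a transcription factor of the unfolded protein response and of luminal cells, rose (0.32, 8.89e-07). With upper-quartile factors 4 of these genes were higher and 4 lower, with total counts 5 and 4; the higher count was 2 without CDK12 replicate 1 or 3. Of 9 mitochondrial folding and protease genes 2 fell, 22.2% called against 35.1% of all genes. They were LONP1, the matrix protease (log2 fold change -0.20, edgeR adjusted p = 0.00175), and TRAP1, the mitochondrial HSP90 (-0.14, 0.0109). By edgeR's quasi-likelihood test with TMM or by DESeq2, 0 were called higher. At an unadjusted edgeR p under 0.05, 0 were higher, against 3115 of all 14665 genes tested. With upper-quartile factors or total counts 1 of the 9 was called higher and 1 lower. TRAP1 did not pass without CDK12 replicate 2 (0.0603) or control replicate 3 (0.0679), with upper-quartile factors (0.0576) or with total counts (0.0697).

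**Figure D5:**
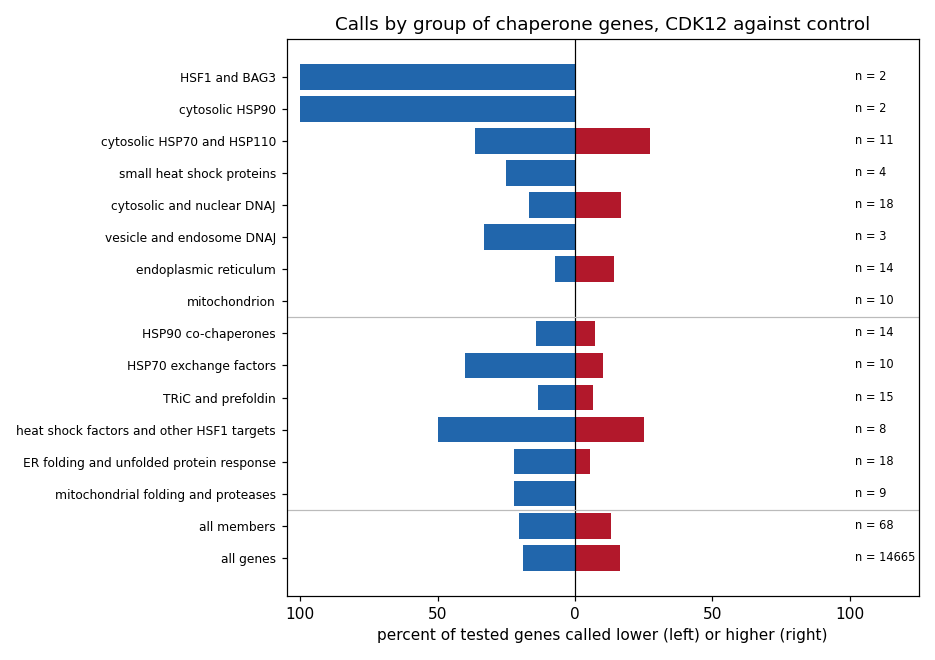
Percent of tested genes called lower (blue, left) and higher (red, right) in each group of chaperone genes, with the number tested, above the bars for all 68 members and all 14665 genes. Bars of 100% rest on 2 genes each, the mitochondrial members have no bar, and the bar of all members is close to that of all genes, 33.8% against 35.1% called.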

How the data were processed

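The libraries were made from polyadenylated RNA with strand marking and read from both ends, per the labels. The authors deposited raw counts per gene symbol. CASAVA 1.8, STAR 2.6.0c, featureCounts and Subread 1.6.2 are named, with build hg19, in the submitters' processing notes. Which annotation, strand setting and rule for multi-mapping reads were used is not given in the sources used, so near-identical copies are uncertain.

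The 14665 genes that passed filterByExpr in edgeR 4.0.16 (minimum count 10, total 15) were TMM scaled and tested by quasi-likelihood, two-sided, on a design holding only the group. Adjustment was by Benjamini-Hochberg over these genes, and the SE is the log2 fold change over the square root of F. Genes were named by a fixed list, by passing the test, as the nearest miss of a compartment, or, in the other lists, as up to 3 called genes in the main direction and 2 in the other; further members were named to account for them. One gene of the other lists that this rule names is not reported here. Members and lists were chosen with earlier results of these data known. An exact two-sided permutation test of CDK12 gave p = 0.1, which is as low as 3 libraries against 3 can go. The alternatives were 3 scalings, 2 filters, DESeq2 1.42.0, a replicate block, and the removal of single libraries. On simulated counts of 14540 genes tested, 200 genes drawn from all levels were changed. There the test recovered 54% of 1.2-fold, 76% of 1.5-fold, 91.5% of 2-fold and 100% of 4-fold changes. Of its calls there, 4.88% were false. In the data 35.1% of genes were called, far more than were changed there, so these shares need not hold for the data. Changes below 1.2-fold were not simulated. Members that did not pass may still have changed by as little as the called ones did. Replicates differed by more than counting noise (chi-square per degree of freedom 2.74 to 4.54). Sequences are from RefSeq promoters of GRCh38.p14.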

Additional observations from a re-analysis of the deposited data

How the results depend on the processing

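CDK12 and the summed HSPA1A and HSPA1B counts kept their direction and call under all 13 alternatives; leaving out libraries gave -0.28 to -0.21 for the sum. Upper-quartile factors and total counts put the median log2 fold change of all genes at 0.04 and 0.05, against 0.00 with TMM, and the share of higher among all calls at 59.6% and 61.7%, against 46.1% with TMM, and the small falls of members depend on the scaling. Given for upper-quartile factors and then total counts, members higher were 16 and 17, members lower 9 and 8, other folding genes higher 12 and 14 and lower 10 and 10. In the same order, higher calls were 5 and 5 for cytosolic and nuclear DNAJ genes, 5 and 6 for cytosolic HSP70 and HSP110, 4 and 4 in the ER and 1 and 1 in the mitochondrion. Lower calls were 1 and 1 for HSP90, 0 and 0 in the ER and 0 and 0 among vesicle genes, and with total counts 1 for cytosolic and nuclear DNAJ genes. With the filter of 1 CPM, 5 cytosolic and nuclear DNAJ genes and 1 mitochondrial gene were higher, and with no filter 1 mitochondrial gene was; DESeq2's Wald test gave 1 higher ER gene. No vesicle gene was lower (0 calls) with DESeq2 size factors, no filter, the 1 CPM filter or the Wald test.

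Leaving out each library in turn gave 8 to 11 members higher and 9 to 16 lower, and 5 to 8 other folding genes higher and 10 to 17 lower. It gave 2 to 4 higher and 2 to 4 lower cytosolic and nuclear DNAJ genes, 1 to 2 lower HSP90 genes, 1 to 2 higher and 0 to 1 lower ER genes, 0 to 1 higher and 0 to 1 lower mitochondrial genes and 0 to 1 lower vesicle genes. All genes called ran from 1789 to 2310 higher and from 2199 to 2735 lower.

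The replicate numbers did not pair the libraries: deviations of same-numbered libraries correlated at -0.07, 0.06 and 0.03. With the replicate block, 1 mitochondrial gene, DNAJC11 (adjusted p = 0.0474), was called lower and DNAJC24 (0.0469) higher, and no called member lost its call.

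Signs turned for 13 uncalled members and for none in a called state. With upper-quartile factors, total counts and the 1 CPM filter DNAJA1 had log2 fold changes of 0.0347, 0.0401 and 0.0035, and DNAJC21 of 0.0333, 0.0388 and 0.0021; with both scalings DNAJB6 had 0.0187 and 0.0243 and DNAJC13 0.0294 and 0.0347. Leaving out single libraries gave ranges that crossed 0: -0.0288 to 0.0311 for DNAJA1, -0.0256 to 0.0208 for DNAJC21, -0.0538 to 0.0051 for DNAJB6, -0.0357 to 0.0211 for DNAJC13, -0.0208 to 0.0955 for DNAJC16, -0.0082 to 0.1061 for DNAJC18, -3e-04 to 0.1187 for DNAJC2, -0.0222 to 0.0622 for DNAJC4, -0.0158 to 0.0633 for DNAJC8, -0.0195 to 0.275 for DNAJC9-AS1, -0.016 to 0.0506 for HSP90B1, -0.0811 to 0.4921 for HSPB8 and -0.1092 to 0.017 for HSPE1. The cause of these shifts was not tested. Depth limits genes of a few CPM, such as HSPA6, HSPB8 and DNAJC28.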
